A study of Homo sapiens with 38 samples.

Results

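The 45 genes described here act in mitosis and at the transition from G2 into mitosis, and they were chosen by name: cyclins and kinases of mitotic entry, mitotic kinases, genes of the spindle checkpoint and of the anaphase-promoting complex or cyclosome (APC/C), kinetochore and centromere genes, spindle proteins and kinesins, and genes of cytokinesis. All 45 were found among the 12627 genes of the deposited table, each as 1 RefSeq messenger RNA. Their RNA was measured by targeted amplicon sequencing in HCT116, a human colorectal carcinoma cell line, in 38 libraries that fall into 9 conditions and were made from cells collected 72 h after transfection with siRNA. NT cells received no siRNA, siCTRL#1 is a non-targeting duplex given at 60 nM, and siCTRL#2 is another non-targeting duplex whose dose the labels do not give. In cells labelled siVPS4A#1 or #2 and siVPS4B#1 or #2, 30 nM of 1 duplex against VPS4A or VPS4B was given together with 30 nM of siCTRL#1, so that these cells carry the control duplex too. siVPS4A+B#1 combines 30 nM each of siVPS4A#2 and siVPS4B#1, siVPS4A+B#2 combines 30 nM each of siVPS4A#1 and siVPS4B#2, and neither holds siCTRL#1. Each condition had 4 libraries except siCTRL#1 and siVPS4A#1, which had 5, and 1 of the siVPS4A#1 libraries (replicate 2), which is by far the shallowest, was left out of the values below.

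VPS4A and VPS4B are paralogous ATPases that take apart ESCRT-III filaments, which cut membranes in endosomal sorting, at the sealing nuclear envelope and at the midbody when daughter cells separate. Cells enter mitosis when cyclin B with CDK1 is activated by the CDC25 phosphatases, with PLK1 and the Aurora kinases acting beside it, and they leave it when the APC/C, loaded with CDC20 and supplied with ubiquitin by UBE2C, marks cyclin B and securin (PTTG1) for degradation so that separase (ESPL1) can part the sister chromatids. RNA of most of these genes is made late in the cell cycle: in resting cells and after p53 and p21 (CDKN1A) are induced, the DREAM complex holds their promoters off through a short element called the cell cycle genes homology region (CHR), and in G2 the MuvB core with MYBL2 and FOXM1 turns them on through the same element. Levels of such genes in a culture can therefore reflect how many cells are in G2 and mitosis, or how far promoters are held off. In bulk RNA fewer cells of a phase and less RNA per cell cannot be told apart. By flow cytometry, the study reports an arrest in G2/M through impaired cytokinesis after VPS4A was silenced in HCT116 cells lacking VPS4B. Whether the share of cells in G2 and mitosis changed in the cultures described here was not tested.

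The libraries held 5090666 to 11035301 reads over the listed genes, except the left-out siVPS4A#1 library with 669257. Levels are given as RPM, the reads of a gene scaled to a library size of 1000000. VPS4A stood at 172 to 206 RPM in siCTRL#1 libraries, at 1.64 to 3.51 in siVPS4A#1, at 5.86 to 10.4 in siVPS4A#2, at 10.7 to 33.9 in siVPS4A+B#1 and at 3.07 to 7.75 in siVPS4A+B#2, so each duplex against it left every library below every control library. VPS4B stood at 16.4 to 24.5 RPM in siCTRL#1, at 0.134 to 0.757 in siVPS4B#1, at 0.72 to 1.55 in siVPS4B#2, at 0.314 to 1.04 in siVPS4A+B#1 and at 0.85 to 1.53 in siVPS4A+B#2. In the left-out library VPS4A was at 11.3, above the other siVPS4A#1 libraries, and VPS4B at 1.62 RPM (1 read), where the other siVPS4A#1 libraries had 21.6 to 32.0 and no duplex against VPS4B was given by the label. Epithelial keratins and EPCAM, which mark the line, were present in every library, with the 5 listed markers of 6 summing to 4301 to 8296 RPM. Of 8 markers of blood, stromal and endothelial cells 6 are not listed in the table, PECAM1 was at 0 to 1.74 RPM and COL1A1 at 7.83 to 86.1. The COL1A1 and PECAM1 sum rose with some conditions, from 15.9 to 31.5 in siCTRL#1 to 34.8 to 61.6 in siVPS4A#1 and 51.5 to 86.7 in siVPS4A+B#2, and its part in the results was not tested. Each of the 45 genes had at least 5 reads in each of the 37 libraries used.

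Because the 45 genes moved together in several conditions, the stretches upstream of their start sites are shown for 6 of them that the RefSeq promoter table (GRCh38.p14) holds. They are examples, and other genes with values given as fully below are not shown. Each line is the 100 bases before the start site, 5′ to 3′ on the gene's strand, and capitals mark the CHR letters TTTGAA or TTTAAA and the CCAAT box or its reverse complement ATTGG. The stretches lie at chr5:69167050-69167149, plus strand (CCNB1), chr16:23678789-23678888, plus strand (PLK1), chr5:138179012-138179111, plus strand (KIF20A), chr10:128126424-128126523, minus strand (MKI67), chr12:53268199-53268298, plus strand (ESPL1) and chr20:3786851-3786950, plus strand (CDC25B).
CCNB1: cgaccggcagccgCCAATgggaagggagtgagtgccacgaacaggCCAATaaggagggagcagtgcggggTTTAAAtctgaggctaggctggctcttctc
PLK1: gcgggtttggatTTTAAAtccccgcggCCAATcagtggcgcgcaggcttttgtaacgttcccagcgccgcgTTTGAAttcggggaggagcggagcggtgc
KIF20A: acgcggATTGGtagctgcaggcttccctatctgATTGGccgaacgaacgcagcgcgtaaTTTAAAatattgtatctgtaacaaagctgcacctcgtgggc
MKI67: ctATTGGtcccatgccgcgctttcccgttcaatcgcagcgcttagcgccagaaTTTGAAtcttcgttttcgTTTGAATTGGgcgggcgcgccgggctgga
ESPL1: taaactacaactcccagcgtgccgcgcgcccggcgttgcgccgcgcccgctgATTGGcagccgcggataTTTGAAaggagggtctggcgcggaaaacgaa
CDC25B: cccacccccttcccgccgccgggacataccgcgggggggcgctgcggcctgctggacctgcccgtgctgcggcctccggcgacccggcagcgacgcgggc
The promoters of CCNB1, PLK1, KIF20A, MKI67 and ESPL1 each hold a CHR and a CCAAT match in these letters, and that of CDC25B holds neither. Among genes not shown, CDK1 has its CHR matches at -161 and -131 and its CCAAT match at -150 from the start. TOP2A has its CHR matches at -194 and -151. At the start site used, the matches of CDK1 and TOP2A thus lie further upstream than the 100 bases shown for other genes. In MKI67 the second CHR match and the ATTGG that follows share bases.

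Of the 45 genes, 38 have a promoter in that table; FOXM1, AURKA, TTK, BUB3, UBE2C, BIRC5 and TPX2 do not. Searching from 100 bases before to 50 after the start on both strands, TTTGAA was found in 25 of the 38 promoters (65.8%), against 3.82% of the 10206 promoters of all tested genes. TTTAAA was found in 9 (23.7% against 2.83%), either of the 2 in 31 (81.6% against 6.35%), and CCAAT in 25 (65.8% against 24.1%). A TATA box, searched as TATAAA, was in 1 (2.63% against 3.15%), so the genes stood out in the CHR and CCAAT letters and not in this one. Among 36 promoters of other G2/M genes the CHR letters were in 17. Over the whole 300-base promoters 33 of the 38 had either CHR form, and CCNA2, CDC25B, CDC25C, AURKB and BUB1 had none. A match in these windows is a description of the letters, and not a measured binding site. Only the first start site listed for each gene was searched, and only for these exact letters. An element at another start site or in another form would be missed, so a gene without a match may still have the element.

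Averaged over the 45 genes, the level in a library was given as log2(RPM + 1) less the mean of the siCTRL#1 libraries, as a description. The siCTRL#1 libraries spread from -0.13 to 0.12, NT from -0.33 to 0.12 and siCTRL#2 from -0.19 to 0.16, so the 3 controls overlapped. siVPS4A#1 libraries were lowest, from -2.22 to -1.46 with a mean of -1.89 ± 0.33 (SD, n = 4). siVPS4A+B#2 libraries followed at -1.31 ± 0.16 (n = 4), siVPS4B#1 at -0.95 ± 0.22 (n = 4) and siVPS4A+B#1 at -0.85 ± 0.14 (n = 4), and the last pair of these overlapped. The groups of siVPS4A#1 and siVPS4A+B#2 overlapped too, since siVPS4A#1 replicate 1 at -1.46 lay above siVPS4A+B#2 replicate 3 at -1.52. siVPS4B#2 was uneven, with replicates 1 and 2 at -0.71 and -0.49 and replicates 3 and 4 both at -0.13. siVPS4A#2 libraries lay at -0.03 to 0.30, among or above the controls. The left-out siVPS4A#1 library was at -1.03, closer to the controls than its group.

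**Figure D1:**
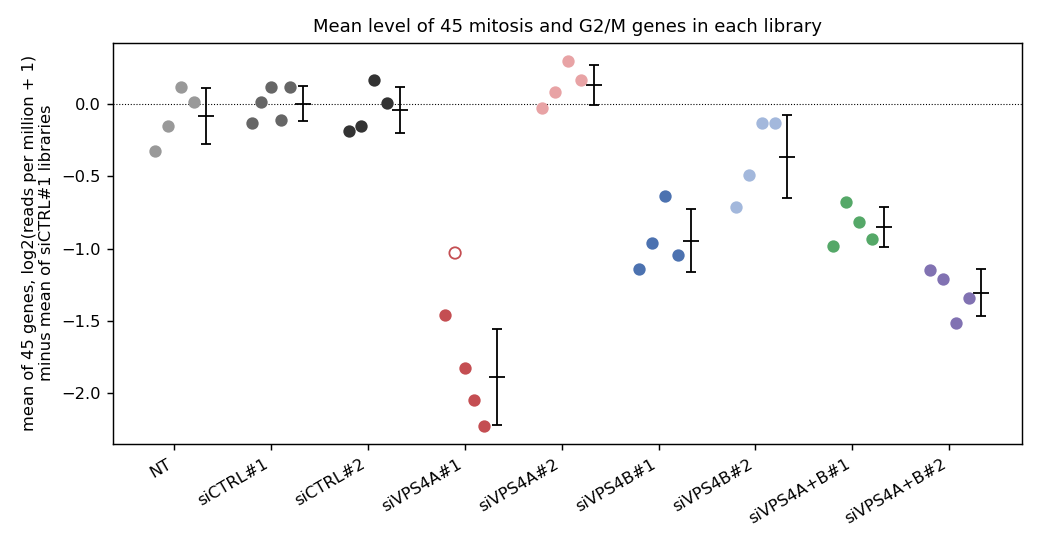
Mean level of the 45 genes in each library, as log2(RPM + 1) minus the mean of the siCTRL#1 libraries (vertical axis), for the 9 conditions (horizontal axis). Points are libraries, bars are mean and SD, and the open circle is the siVPS4A#1 library that was left out; siVPS4A#1 libraries reach -2.22 while siVPS4A#2 libraries stay between -0.03 and 0.30.

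siVPS4A#1 lowered all 45 genes against siCTRL#1, 44 of them by at least 1.5-fold (12.5% of all genes), with a median of 3.82-fold on the log2(RPM + 1) scale, which understates changes of low genes (limma with Benjamini-Hochberg adjustment over all genes, adjusted p under 0.05, the rule for every count below). In the same comparison 19.3% of all genes were called lower and the median log2 fold change of all genes was 0.01. In 44 of the 45 genes all siVPS4A#1 libraries lay below all siCTRL#1 libraries, as did 14.6% of all genes, and the exception was CDC25B. The gene furthest down was CENPA, the histone H3 variant that marks centromeres, at 6.06, 6.95, 2.54 and 3.32 RPM against 38.3, 26.9, 36.7, 32.3 and 33.3 in siCTRL#1. Its log2 fold change was -2.68 ± 0.17 (SE; limma adjusted p = 2.05e-15). DLGAP5, a spindle protein that bundles kinetochore microtubules, followed at -2.44 ± 0.23 (SE; limma adjusted p = 1.88e-11). MKI67, the antigen behind the Ki-67 stain of proliferating cells, changed by -2.37 ± 0.17 (SE; limma adjusted p = 4.74e-14), NUSAP1, which binds spindle microtubules near chromosomes, by -2.37 ± 0.19 (SE; limma adjusted p = 7.74e-13), and PLK1 by -2.33 ± 0.22 (SE; limma adjusted p = 3.69e-11). The smallest changes were those of BUB3, a checkpoint protein, at -0.69 ± 0.12 (SE; limma adjusted p = 1.17e-05) and of CDC25B, a phosphatase that activates CDK1, at -0.32 ± 0.13 (SE; limma adjusted p = 0.0396).

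PLK1 (chr16:23688977-23701688, plus strand, GRCh37) codes for Polo-like kinase 1, which acts from mitotic entry to cytokinesis. It stood at 102, 159, 176, 100.5 and 197 RPM in the siCTRL#1 libraries and at 33.9, 18.8, 35.7 and 26.7 in the siVPS4A#1 libraries. With siVPS4A#2 it stood at 130.5, 124, 143 and 178. The siVPS4A#1 libraries thus lay below all others shown, and the siVPS4A#2 libraries lay within the range of the control.

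CCNB1 (chr5:68462962-68474072, plus strand), the gene of cyclin B1, stood at 68.6, 101, 106, 88.7 and 119.7 in siCTRL#1 and at 30.8, 23.4, 18.9 and 18.2 in siVPS4A#1, with no overlap and a log2 fold change of -2.07 ± 0.17 (SE; limma adjusted p = 4.43e-13). In siVPS4A#2 it was at 83.8, 106, 150.1 and 109, overlapping the control. CDK1 (chr10:62538089-62554610, plus strand), its kinase partner, fell from 141, 150.5, 126, 133 and 152 to 54.1, 26.3, 26.2 and 25.4 RPM, a log2 fold change of -2.14 ± 0.18 (SE; limma adjusted p = 2.09e-12), and replicate 1 was the highest of the siVPS4A#1 libraries for both genes. TOP2A (chr17:38544777-38574148, minus strand), the topoisomerase that untangles sister chromatids, changed by -1.94 ± 0.16 (SE; limma adjusted p = 1.91e-12). FOXM1 (chr12:2966846-2986340, minus strand), a transcription factor that turns on G2/M genes, stood at 38.6, 61.8, 58.5, 41.8 and 62.6 in siCTRL#1 and at 20.4, 12.6, 13.0 and 10.6 in siVPS4A#1. It changed by -1.82 ± 0.19 (SE; limma adjusted p = 6.51e-10).

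siVPS4A#2, the other duplex against VPS4A, lowered VPS4A but moved none of the 45 genes past the threshold, where 0.0475% of all genes were called lower and 0.0396% higher. At an unadjusted p under 0.05 there was 1 gene, and DESeq2 and edgeR run on the recovered reads also called 0. The median log2 fold change was 0.13, with single genes from -0.37 (PRC1) to 0.36 (HMMR). The 95% interval of the change excluded a fall of 1.5-fold for 43 of the 45 genes. MKI67 was at 184, 162, 136 and 161 RPM with siVPS4A#2 and at 43.5, 25, 23.2 and 21.3 with siVPS4A#1, against 124, 183, 126, 139.6 and 162 in siCTRL#1. Tested directly, siVPS4A#1 was lower than siVPS4A#2 in all 45 genes, with a median of 4.10-fold, where 17.2% of all genes were called lower. That difference was smallest in CDC25B, at -0.46 ± 0.14 (SE; limma adjusted p = 0.00860), and largest in DLGAP5, at -2.57 ± 0.25 (SE; limma adjusted p = 5.89e-11), followed by NUSAP1 (-2.54), KIF2C (-2.50), MKI67 (-2.49) and CENPA (-2.48). With VPS4A at 1.64 to 3.51 RPM under siVPS4A#1 and 5.86 to 10.4 under siVPS4A#2, the depth of the knockdown differed too, and its part in the result was not tested.

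**Figure D2:**
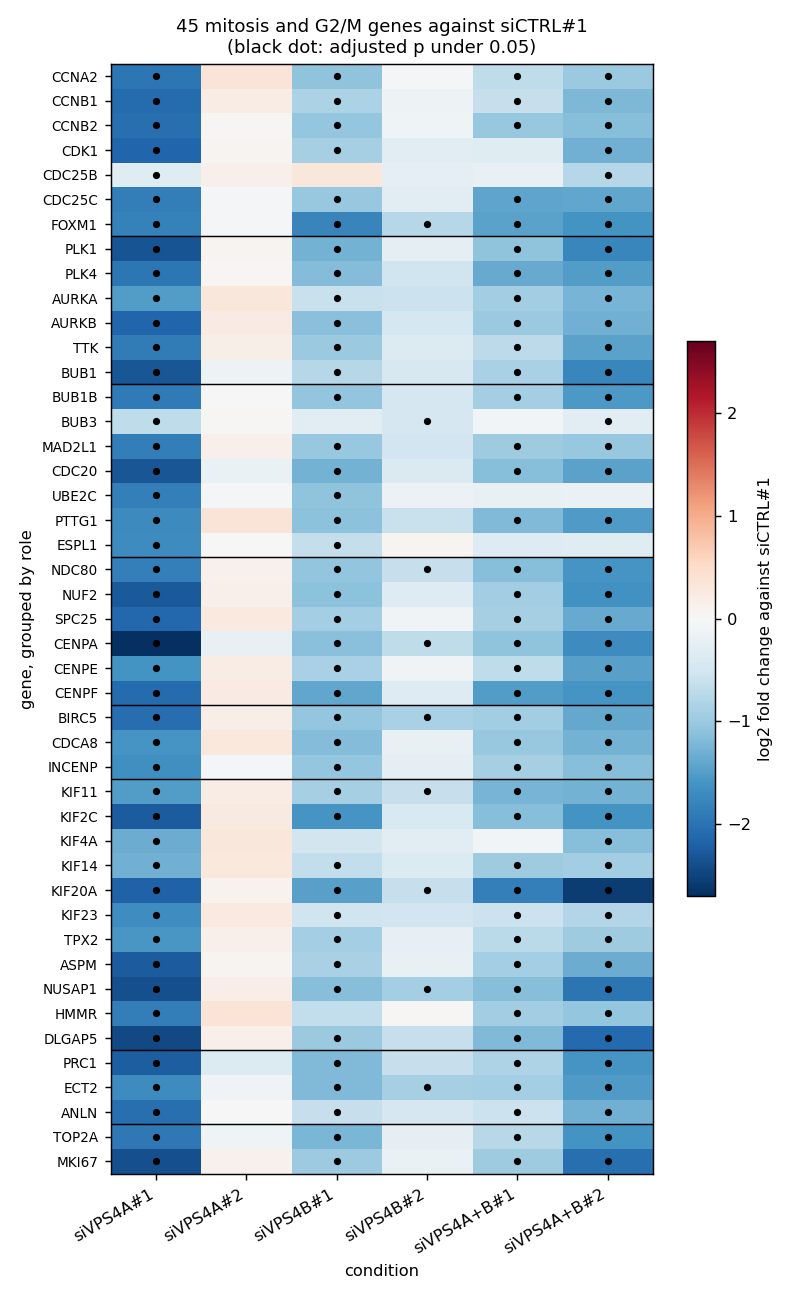
Log2 fold change against siCTRL#1 (colour) of each of the 45 genes (rows, grouped by role) in the 6 knockdown conditions (columns). The siVPS4A#1 column is low in every row, the siVPS4A#2 column stays between -0.37 and 0.36, and UBE2C and ESPL1 are the 2 rows in which neither combined pair passed.

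siVPS4B#1 lowered 41 of the 45 genes, with a median of 2.05-fold, where 11.7% of all genes were called lower. Genes of every role fell. The largest changes were in FOXM1, at -1.78 ± 0.20 (SE; limma adjusted p = 9.61e-09), in KIF2C, a kinesin that takes microtubules apart at centromeres, at -1.58 ± 0.17 (SE; limma adjusted p = 4.75e-09), and in KIF20A, a kinesin of the central spindle, at -1.47 ± 0.21 (SE; limma adjusted p = 2.13e-06). CENPF, a large kinetochore protein, changed by -1.40 ± 0.16 (SE; limma adjusted p = 2.64e-08) and CDC20, the activator of the APC/C, by -1.27 ± 0.22 (SE; limma adjusted p = 2.73e-05). FOXM1 stood at 9.24, 21.2, 16.3 and 13.6 RPM, all libraries below those of siCTRL#1. The genes that did not pass were CDC25B (0.30), BUB3 (-0.30), KIF4A (-0.51) and HMMR (-0.66), the last with the widest error of the group.

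siVPS4B#2, the other duplex against VPS4B, lowered 9 of the 45 genes and raised none, where 7.77% of all genes were called lower and 6.49% higher; the median log2 fold change was -0.37 and 23 genes had an unadjusted p under 0.05. The 9 were NUSAP1 (-0.92 ± 0.20 SE, limma adjusted p = 0.00136), ECT2, the exchange factor that starts the contractile ring (-0.89 ± 0.20 SE, limma adjusted p = 0.00195), BIRC5, the survivin subunit of the chromosomal passenger complex (-0.88 ± 0.16 SE, limma adjusted p = 0.000229), FOXM1 (-0.76 ± 0.20 SE, limma adjusted p = 0.00768), CENPA (-0.68 ± 0.18 SE, limma adjusted p = 0.00795), NDC80, KIF11, KIF20A and BUB3. BIRC5 was at 124, 123, 128 and 154 RPM against 219, 209, 261, 223 and 224 in siCTRL#1, without overlap. ECT2 rested more on replicate 1, at 5.79, 18.0, 19.0 and 23.3 against 28.6, 21.2, 38.2, 26.1 and 28.9. Left out in turn, replicate 1 brought the count of genes lower down to 3 and replicate 3 brought it to 5.

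Compared directly, siVPS4B#1 was lower than siVPS4B#2 in 26 genes and higher in CDC25B, where 12.6% of all genes were called lower and 12.8% higher. KIF2C differed by -1.17 ± 0.17 (SE; limma adjusted p = 2.6e-06), CENPF by -1.06 ± 0.17 (SE; limma adjusted p = 8.33e-06), FOXM1 by -1.02 ± 0.20 (SE; limma adjusted p = 0.000209), CCNA2 by -1.02 ± 0.16 (SE; limma adjusted p = 1e-05) and PLK1 by -1.0 ± 0.23 (SE; limma adjusted p = 0.00125). CDC25B differed by 0.56 ± 0.13 (SE; limma adjusted p = 0.00136). PLK1 was at 39.5, 70.4, 69.0 and 51.9 RPM with siVPS4B#1 and at 99.8, 70.8, 158 and 147 with siVPS4B#2. The groups did not overlap, though replicate 2 of siVPS4B#2 lay just above the highest siVPS4B#1 library. Without replicate 4 the count of genes lower was 16. VPS4B itself stood at 0.134 to 0.757 and 0.72 to 1.55 RPM in these groups, and the part of that difference was not tested.

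The 2 combined knockdowns lowered most of the genes. siVPS4A+B#1 lowered 39 of 45, with a median of 1.92-fold, where 18.7% of all genes were called lower. siVPS4A+B#2 lowered 43 of 45, with a median of 2.61-fold, where 23.6% of all genes were. All libraries lay below all siCTRL#1 libraries in 32 genes for siVPS4A+B#1 (10.5% of all genes) and in 43 genes for siVPS4A+B#2 (15.7% of all genes).

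KIF20A (chr5:137514408-137523412, plus strand), the central spindle kinesin, was the gene furthest down in both pairs against siCTRL#1. It stood at 46.2, 50.8, 57.1, 45.2 and 44.2 RPM in siCTRL#1, at 12.4, 21.4, 10.9 and 11.5 in siVPS4A+B#1 and at 14.3, 8.61, 4.48 and 6.8 in siVPS4A+B#2. Its log2 fold changes were -1.86 ± 0.21 (SE; limma adjusted p = 6.14e-09) and -2.56 ± 0.21 (SE; limma adjusted p = 1.43e-12). KIF20A was also among the few genes that differed between the controls, since NT was at 23.6, 30.8, 33.9 and 29.7 and siCTRL#2 at 26.1, 37.2, 27.3 and 32.9, both below all siCTRL#1 libraries. Both pairs lay below NT and siCTRL#2 too. Against NT, KIF20A was not the gene furthest down in siVPS4A+B#1. Its log2 fold change there was -1.07 ± 0.22 (SE; limma adjusted p = 0.000131), beside -1.66 for FOXM1.

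In siVPS4A+B#1 the other largest changes were in CENPF (-1.51 ± 0.16 SE, limma adjusted p = 1.3e-09), FOXM1 (-1.45 ± 0.20 SE, limma adjusted p = 1.96e-07), CDC25C, a phosphatase of mitotic entry (-1.43 ± 0.22 SE, limma adjusted p = 1.22e-06), and PLK4, the kinase of centriole duplication (-1.37 ± 0.22 SE, limma adjusted p = 4.18e-06). In siVPS4A+B#2 they were in DLGAP5 (-2.10 ± 0.23 SE, limma adjusted p = 9.98e-10), MKI67 (-2.04 ± 0.18 SE, limma adjusted p = 2.76e-12), NUSAP1 (-1.97 ± 0.20 SE, limma adjusted p = 1.16e-10) and PLK1 (-1.77 ± 0.23 SE, limma adjusted p = 3.01e-08). MKI67 (chr10:129894923-129924687, minus strand) stood at 74.2, 92.5, 82.2 and 62.4 RPM in siVPS4A+B#1 and at 43.5, 47.6, 23.5 and 32.9 in siVPS4A+B#2, and both groups lay below all siCTRL#1 libraries. TOP2A changed by -0.75 ± 0.17 (SE; limma adjusted p = 0.000424) and -1.61 ± 0.17 (SE; limma adjusted p = 2.46e-10), and CCNB1 by -0.62 ± 0.17 (SE; limma adjusted p = 0.00320) and -1.22 ± 0.17 (SE; limma adjusted p = 1.5e-07). PLK1 was at 52.8, 94.4, 72.7 and 48.2 and at 36.7, 41.8, 32.7 and 49.8, and it did not overlap the control in either.

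**Figure D3:**
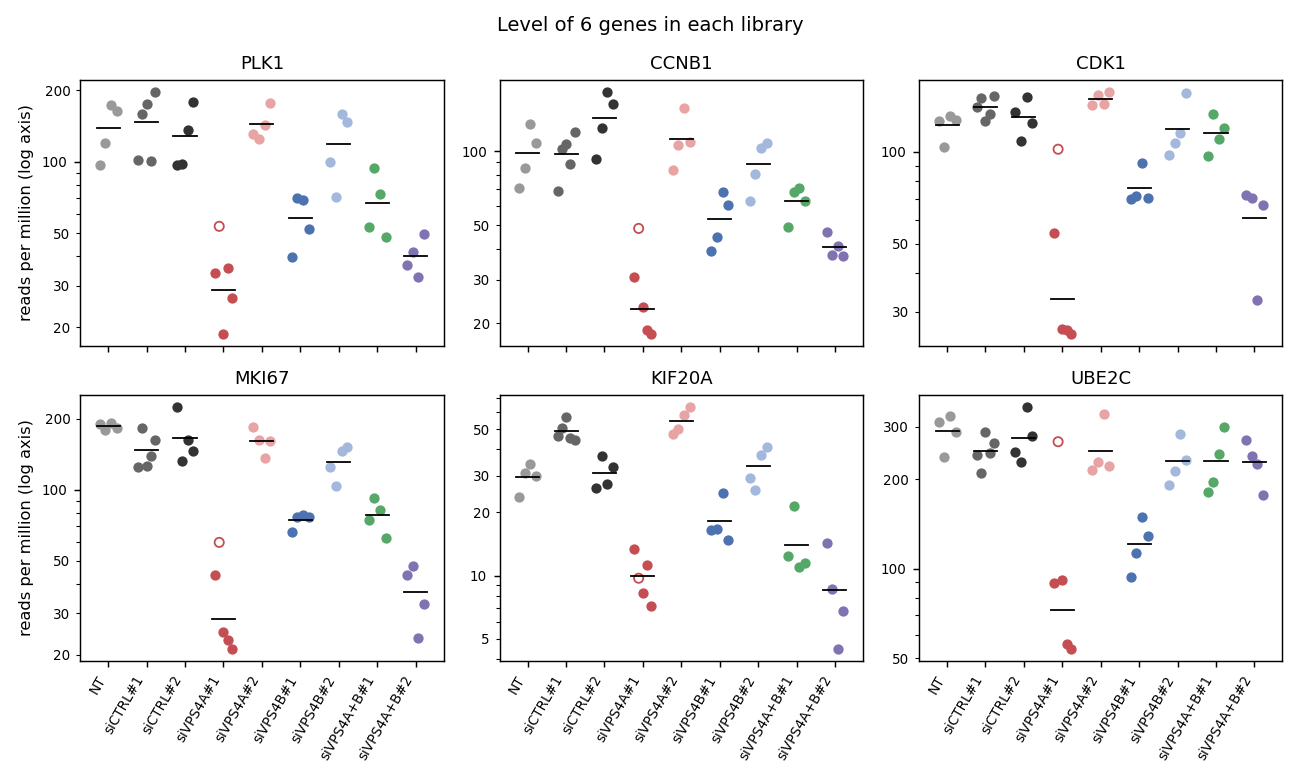
Level of PLK1, CCNB1, CDK1, MKI67, KIF20A and UBE2C in each library (RPM, log axis) for the 9 conditions, with the mean as a line and the left-out siVPS4A#1 library as an open circle. UBE2C differs from the other 5, with both combined pairs at the level of siCTRL#1 (178 to 299 against 210.1 to 287) and the 4 siVPS4A#1 libraries used between 53.9 and 91.8.

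UBE2C (chr20:44441215-44445596, plus strand), the E2 enzyme that supplies the APC/C with ubiquitin, and ESPL1 (chr12:53662083-53687422, plus strand), separase, passed the threshold against siCTRL#1 in neither pair. UBE2C stood at 240.4, 210.1, 287, 245 and 264 RPM in siCTRL#1, at 181, 195, 242 and 299 in siVPS4A+B#1 and at 272, 239.8, 226 and 178 in siVPS4A+B#2. With single duplexes it was at 89.4, 91.8, 55.9 and 53.9 (siVPS4A#1), 215, 228, 332 and 221 (siVPS4A#2), 93.9, 113, 149 and 129 (siVPS4B#1) and 191, 213, 284 and 232 (siVPS4B#2). Thus siVPS4A#1 and siVPS4B#1 libraries lay below all control libraries and the pairs that contain these duplexes overlapped the control. The log2 fold changes of the pairs were -0.19 and -0.18, with 95% intervals of -0.50 to 0.12 and -0.49 to 0.12. Against NT, where UBE2C stood at 310.2, 237, 327 and 287, both pairs passed narrowly (-0.37 ± 0.15 SE, limma adjusted p = 0.0478 and -0.36 ± 0.15 SE, limma adjusted p = 0.0492). ESPL1 was at 37.5, 58.0, 52.2, 35.3 and 63.1 in siCTRL#1, 28.8, 38.4, 43.3 and 43.2 in siVPS4A+B#1 and 37, 46.3, 44.3 and 29.9 in siVPS4A+B#2, and its changes were -0.35 ± 0.18 (SE; limma adjusted p = 0.113) and -0.32 ± 0.18 (SE; limma adjusted p = 0.139). Its promoter holds a CHR and a CCAAT match in the letters shown above, as do those of genes that fell. Whether these letters bear on the level of ESPL1 was not tested. In siVPS4A+B#1, CDK1 (-0.34), CDC25B (-0.19), BUB3 (-0.08) and KIF4A (-0.07) did not pass either, and all of these fell in siVPS4A+B#2.

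Adding siVPS4B#1 to siVPS4A#2 lowered 39 genes against siVPS4A#2 alone, with a median log2 fold change of -1.06, where 18.9% of all genes were called lower. Against siVPS4B#1 alone the same pair differed in few genes: UBE2C (0.89 ± 0.15 SE, limma adjusted p = 3.99e-05) and CDK1 (0.57 ± 0.19 SE, limma adjusted p = 0.0335) were higher and CDC25B (-0.49 ± 0.13 SE, limma adjusted p = 0.00737) was lower, where 8.15% and 7.75% of all genes were called. Leaving out a replicate number at a time gave 1 to 3 genes higher, with CDK1 no longer called without number 2 or number 4, and CDC25B was no longer called without number 3 or number 4. The median over the 45 genes was 0.09.

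siVPS4A+B#2 lowered 40 genes against siVPS4B#2 alone, with a median of -1.02, where 21.2% of all genes were called lower. Against siVPS4A#1 alone it was higher in 23 genes and lower in 1, where 13.6% of all genes were called higher and 13.4% lower. The largest differences were UBE2C (1.66 ± 0.16 SE, limma adjusted p = 2.01e-10), ESPL1 (1.38 ± 0.19 SE, limma adjusted p = 4.34e-07), CENPA (0.98 ± 0.19 SE, limma adjusted p = 0.000128), CCNA2 (0.96 ± 0.17 SE, limma adjusted p = 3.9e-05) and ASPM, a spindle pole protein (0.92 ± 0.20 SE, limma adjusted p = 0.000531), and the gene lower was CDC25B (-0.46 ± 0.14 SE, limma adjusted p = 0.0113). CENPA stood at 11.1, 10.1, 8.0 and 10.7 RPM in the pair and at 6.06, 6.95, 2.54 and 3.32 with siVPS4A#1 alone, and the groups did not overlap. With the left-out siVPS4A#1 library put back, the count of genes higher was 11. VPS4A stood at 3.07 to 7.75 RPM in the pair and at 1.64 to 3.51 with siVPS4A#1 alone, and the part of that difference was not tested.

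Whether a pair departed from the sum of its single duplexes was tested as the pair plus siCTRL#1 minus both singles on the log2 scale. In siVPS4A+B#1, UBE2C lay above the sum by 0.94 ± 0.21 (SE; limma adjusted p = 0.00379) and CDC25B below it by -0.62 ± 0.18 (SE; limma adjusted p = 0.0308), where 3.9% of all genes were called above and 2.44% below; 6 genes had an unadjusted p under 0.05. Both calls were lost with all 38 libraries, and that of CDC25B also when replicate number 1, 3 or 4, or replicate 4 of siCTRL#1, was left out and without the replicate block. In siVPS4A+B#2, 33 of the 45 genes lay above the sum and none below, where 10.4% of all genes were called above and 9.27% below, and the median departure was 0.96. The largest were UBE2C (1.81 ± 0.21 SE, limma adjusted p = 4e-08), CENPA (1.65 ± 0.25 SE, limma adjusted p = 5.16e-06), BIRC5 (1.55 ± 0.23 SE, limma adjusted p = 3.39e-06), KIF23, a kinesin of the central spindle (1.41 ± 0.27 SE, limma adjusted p = 0.000170), and MAD2L1, the MAD2 checkpoint protein (1.38 ± 0.30 SE, limma adjusted p = 0.000776). CCNB1 (0.99 ± 0.24 SE, limma adjusted p = 0.00265), CDK1 (1.12 ± 0.26 SE, limma adjusted p = 0.00196) and FOXM1 (0.96 ± 0.28 SE, limma adjusted p = 0.0125) passed as well, and PLK1 (0.83 ± 0.32 SE, limma adjusted p = 0.0644), MKI67 (0.52 ± 0.25 SE, limma adjusted p = 0.142) and TOP2A (0.57 ± 0.24 SE, limma adjusted p = 0.0857) did not. With the left-out siVPS4A#1 library put back the count was 13, and leaving out each replicate number gave 24 to 31. A single duplex was given with siCTRL#1 and a pair was not, so a departure and the absence of siCTRL#1 from the pairs cannot be told apart. VPS4A was also less reduced in the pairs than with the same duplex alone. It stood at 10.7 to 33.9 RPM in siVPS4A+B#1 against 5.86 to 10.4 in siVPS4A#2. In siVPS4A+B#2 it stood at 3.07 to 7.75 against 1.64 to 3.51 in siVPS4A#1, and the latter ranges overlapped. The part of these differences in the departures was not tested.

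**Figure D4:**
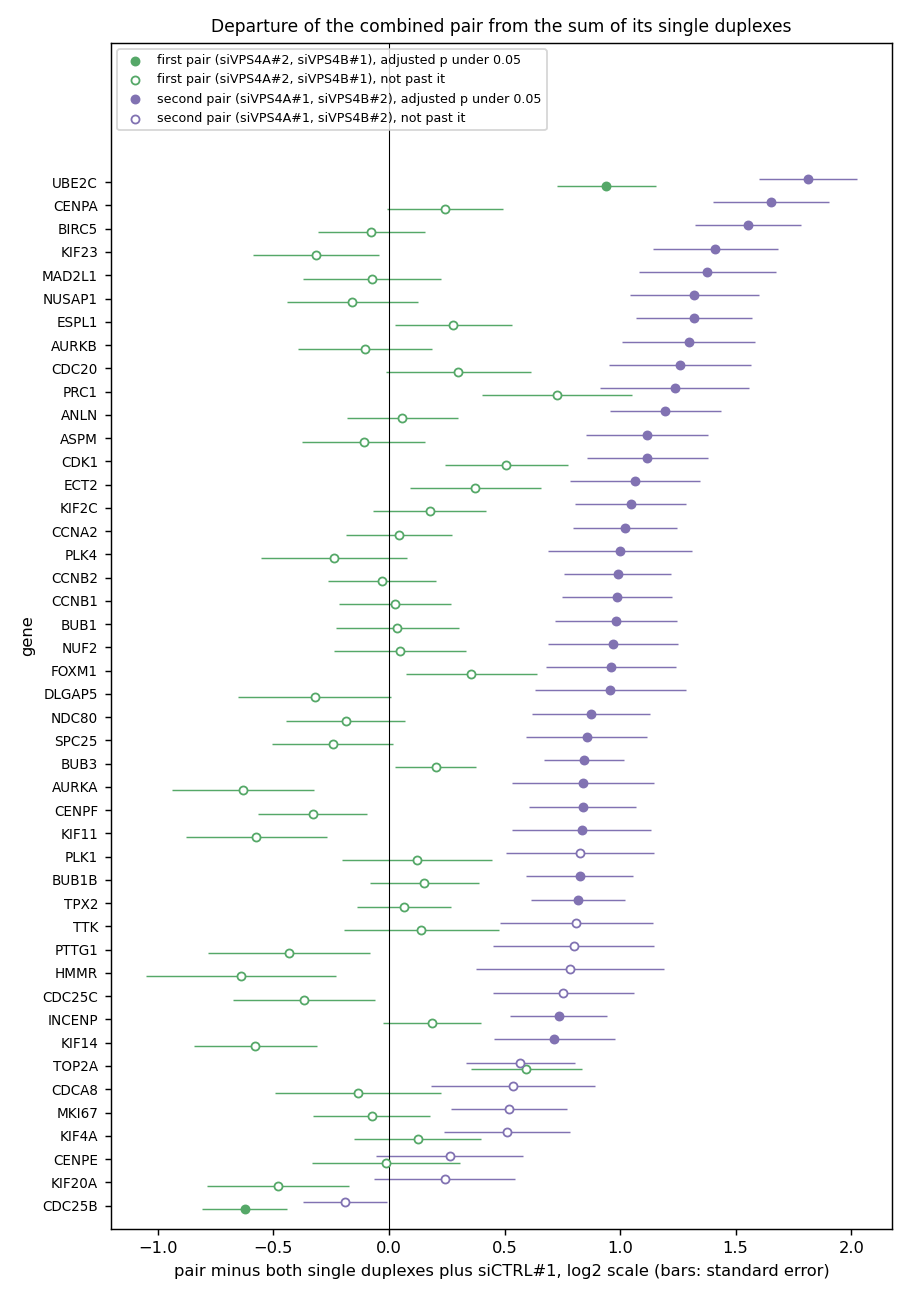
Departure of each pair from the sum of its single duplexes (log2 scale, horizontal axis, bars are SE) for the 45 genes (vertical axis), with filled points past an adjusted p of 0.05. For siVPS4A#1 with siVPS4B#2 (purple) 33 genes lie above 0, led by UBE2C at 1.81, and for siVPS4A#2 with siVPS4B#1 (green) UBE2C and CDC25B pass.

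The 2 pairs differed from each other in 21 genes, all higher in siVPS4A+B#1, where 15.7% of all genes were called higher. The largest differences were in MKI67 (1.09 ± 0.18 SE, limma adjusted p = 1.01e-05), KIF4A, a chromosome-bound kinesin (1.07 ± 0.20 SE, limma adjusted p = 4.83e-05), CDK1 (0.96 ± 0.19 SE, limma adjusted p = 0.000136), DLGAP5 (0.91 ± 0.24 SE, limma adjusted p = 0.00306) and BUB1, a checkpoint kinase (0.89 ± 0.19 SE, limma adjusted p = 0.000390). CDK1 was at 96.7, 133, 110.4 and 119 RPM in siVPS4A+B#1 and at 72.1, 70.6, 32.8 and 66.9 in siVPS4A+B#2, and the groups did not overlap. FOXM1 (0.17), CCNB2 (0.12) and CENPF (0.07) did not pass. Leaving out replicate number 2, or number 3, brought the count to 11.

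By role, the cyclins, kinases and factors of mitotic entry (CCNA2, CCNB1, CCNB2, CDK1, CDC25B, CDC25C and FOXM1) gave 7 of 7 genes lower with siVPS4A#1, 6 with siVPS4B#1, 1 with siVPS4B#2, 5 in siVPS4A+B#1 and 7 in siVPS4A+B#2. Over all genes 19.3%, 11.7%, 7.77%, 18.7% and 23.6% were called lower in the same order. With siVPS4B#2 the counts by role are too small to be read as results about a role. The mitotic kinases PLK1, PLK4, AURKA, AURKB, TTK and BUB1 gave 6 of 6 in siVPS4A#1, siVPS4B#1 and both pairs and 0 with siVPS4B#2. The kinetochore and centromere genes NDC80, NUF2, SPC25, CENPA, CENPE and CENPF also gave 6 of 6 in those conditions, and 2 with siVPS4B#2. The checkpoint and APC/C genes (BUB1B, BUB3, MAD2L1, CDC20, UBE2C, PTTG1 and ESPL1) were the least uniform, with 7 of 7 lower with siVPS4A#1, 6 with siVPS4B#1, 1 with siVPS4B#2, 4 in siVPS4A+B#1 and 5 in siVPS4A+B#2. PTTG1 has near-identical copies elsewhere in the genome that the counting could split, so its value is uncertain.

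The 11 spindle proteins and kinesins gave 11 genes lower with siVPS4A#1, 9 with siVPS4B#1, 3 with siVPS4B#2, 10 in siVPS4A+B#1 and 11 in siVPS4A+B#2. The 3 genes each of the chromosomal passenger complex (BIRC5, CDCA8 and INCENP) and of cytokinesis (PRC1, ECT2 and ANLN) were lower in all of these except siVPS4B#2, where 1 of each passed. ANLN, the anillin scaffold of the contractile ring, was at 226, 300.3, 305, 212 and 325 RPM in siCTRL#1, 148, 204, 191 and 202 in siVPS4A+B#1 and 128, 121, 108 and 92.6 in siVPS4A+B#2. Its siVPS4A+B#1 libraries lay just below the lowest control library, and its change was -0.57 ± 0.17 (SE; limma adjusted p = 0.00636). NT libraries, at 155, 176, 237 and 203, overlapped those of siVPS4A+B#1, and against NT the change was -0.06 ± 0.17 (SE; limma adjusted p = 0.813). TOP2A and MKI67 were lower with siVPS4A#1, with siVPS4B#1 and in both pairs. No role had a gene called in siVPS4A#2.

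CDC25B (chr20:3767419-3786768, plus strand) kept apart from the other genes in several comparisons. It stood at 136, 178, 179, 155 and 190.4 RPM in siCTRL#1, 99.2, 167, 145 and 127 in siVPS4A#1, 159.7, 199.8, 231 and 232 in siVPS4B#1 and 81.5, 85.9, 129 and 97.4 in siVPS4A+B#2. It was at 325, 355, 291 and 354 in siCTRL#2, above every library of every other condition. Its change in siVPS4A+B#2 was -0.78 ± 0.13 (SE; limma adjusted p = 3.67e-06), and in siCTRL#2 1.0 ± 0.13 (SE; limma adjusted p = 7.4e-08). Neither CHR form nor CCAAT was in the letters of its promoter stretch. At the start site and in the exact letters searched, CDC25C also had neither, and CCNA2, AURKB and BUB1 had no CHR match. CDC25C, CCNA2, AURKB and BUB1 fell with siVPS4A#1, with siVPS4B#1 and in both pairs. Whether the letters bear on the level of CDC25B or of these other genes was not tested.

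The controls differed in few of the 45 genes. siCTRL#1 was higher than NT in 4: KIF20A (0.78 ± 0.21 SE, limma adjusted p = 0.00932), PTTG1 (0.75 ± 0.24 SE, limma adjusted p = 0.0294), ECT2 (0.55 ± 0.20 SE, limma adjusted p = 0.0483) and ANLN (0.52 ± 0.17 SE, limma adjusted p = 0.0288), where 9.01% of all genes were called higher. Leaving out each replicate number gave 1 to 3. siCTRL#2 against siCTRL#1 was higher in CDC25B, CCNB1 (0.49 ± 0.17 SE, limma adjusted p = 0.0258) and BUB3 (0.34 ± 0.12 SE, limma adjusted p = 0.0311) and lower in ESPL1 (-0.83 ± 0.18 SE, limma adjusted p = 0.000343), ECT2 (-0.80 ± 0.20 SE, limma adjusted p = 0.00199), KIF20A (-0.72 ± 0.21 SE, limma adjusted p = 0.0102) and TTK (-0.67 ± 0.23 SE, limma adjusted p = 0.0273), where 13.1% of all genes were called higher and 15.9% lower. Against NT in place of siCTRL#1, siVPS4A#1 lowered 44 of the 45 genes (19.8% of all genes), siVPS4B#1 39 (18.8%), siVPS4B#2 9 (13.4%), siVPS4A+B#1 36 (20.9%) and siVPS4A+B#2 44 (24.0%), while siVPS4A#2 raised 5 (7.48%) and lowered none (6.91%). The genes were not all the same as against siCTRL#1. With siVPS4B#2, ECT2 (-0.34 ± 0.20 SE, limma adjusted p = 0.226), CENPA (-0.47 ± 0.18 SE, limma adjusted p = 0.0509) and KIF20A (0.16 ± 0.22 SE, limma adjusted p = 0.639) no longer passed and KIF4A, KIF23 and MKI67 did, and the value of KIF20A changed sign. In siVPS4A+B#1, ANLN, CCNA2, ECT2, PRC1, PTTG1 and SPC25 no longer passed and BUB3, KIF4A and UBE2C did. With siVPS4B#1, ANLN, AURKA, PTTG1 and SPC25 no longer passed and BUB3 and KIF4A did. CDC25B was the gene lost with siVPS4A#1 (-0.22 ± 0.14 SE, limma adjusted p = 0.210), and UBE2C was the gene gained in siVPS4A+B#2.

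Further G2/M genes, 41 that are not among the 45, were lower in 40 with siVPS4A#1, 36 with siVPS4B#1, 5 with siVPS4B#2, 37 in siVPS4A+B#1 and 39 in siVPS4A+B#2, and none was called in siVPS4A#2. For each list of this paragraph the shares of all genes called lower were 19.3%, 11.7%, 7.77%, 18.7% and 23.6%, in the same order. The counts with siVPS4B#2 lay nearest to that share and are no result about the lists. In log2 fold change, the largest falls shared by the pairs were in PIMREG (-1.85 and -2.31), in UBE2S, the other E2 enzyme of the APC/C (-2.42 and -1.19), and in LMNB1, lamin B1 (-1.47 and -1.95). TUBA1C, an alpha-tubulin with close copies, was higher in both (0.85 and 0.51). UBE2S fell while UBE2C did not pass in the pairs. Of 27 further kinetochore genes, 23 were lower with siVPS4A#1, 16 with siVPS4B#1, 4 with siVPS4B#2, 16 in siVPS4A+B#1 and 19 in siVPS4A+B#2, led in the pairs by CENPU (-1.22 and -2.02), ZWINT (-1.09 and -1.48) and SPDL1 (-0.99 and -1.48). Of 13 condensin and cohesin genes, 11 were lower with siVPS4A#1, 10 with siVPS4B#1, 2 with siVPS4B#2 and 10 in each pair, with NCAPG (-0.88 and -2.01), SMC4 (-1.0 and -1.34) and SMC2 (-0.64 and -1.51) furthest down. STAG2, a cohesin subunit, was higher (0.70 and 0.42).

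Of 16 subunits and regulators of the APC/C itself, siVPS4A#1 lowered 5 and raised 3, siVPS4A+B#1 lowered 4 and raised 2, and siVPS4A+B#2 lowered 4 and raised 3, with medians of -0.02, -0.10 and -0.05. Over all genes 19.3%, 18.7% and 23.6% were called lower and 17.7%, 18.3% and 21.6% higher in these comparisons, so the counts of so short a list lay near the background. The members that fell in both pairs were FBXO5, the inhibitor EMI1 (-0.85 and -1.06), and ANAPC1, a scaffold subunit (-0.36 and -0.34). Of 16 further cytokinesis genes, 5, 2 and 6 fell and 3, 2 and 4 rose in the same conditions, which is read against the same shares of all genes and is no result about the list. CEP55, which brings ESCRT proteins to the midbody, had log2 fold changes of -0.75 and -1.96 in the pairs, and RACGAP1, a subunit of centralspindlin, of -1.03 and -1.22.

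The fall was not restricted to genes of G2 and mitosis. Of 20 G1/S genes, which act in DNA replication and its onset, 18 fell with siVPS4A#1, 17 with siVPS4B#1, 5 with siVPS4B#2 and 17 in each pair. They were led in the pairs by MCM5 (-1.55 and -1.07), RRM2 (-1.22 and -1.43) and CCNE2 (-1.38 and -1.09), and CCNE1, cyclin E1, rose (0.82 and 1.5). Their median log2 fold change was -1.26 with siVPS4A#1, beside -1.94 for the 45 genes, and -0.90 in each pair, beside -0.94 and -1.38. None of the 20 was called with siVPS4A#2. Of all genes 19.3%, 11.7% and 7.77% were called lower with siVPS4A#1, siVPS4B#1 and siVPS4B#2, and 18.7% and 23.6% in the pairs.

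Of 13 genes of the DREAM and MYB-MuvB complexes, 6 fell with siVPS4A#1, 5 with siVPS4B#1, 2 with siVPS4B#2, 6 in siVPS4A+B#1 and 7 in siVPS4A+B#2. Of all genes 19.3%, 11.7%, 7.77%, 18.7% and 23.6% were called lower in the same order. The count of 2 with siVPS4B#2 is too small to be read as a result about the list. MYBL2, the B-MYB factor that works with MuvB on G2/M promoters, changed by -2.29 ± 0.13 (SE; limma adjusted p = 3.24e-17) with siVPS4A#1, -0.61 ± 0.13 (SE; limma adjusted p = 0.000274) in siVPS4A+B#1 and -1.26 ± 0.13 (SE; limma adjusted p = 2.98e-10) in siVPS4A+B#2. LIN52 (-0.65 and -1.22), a MuvB subunit, and RBL1 (-0.97 and -0.97), the p107 pocket protein, fell in both pairs. MYBL2 was also lower in siCTRL#2 than in siCTRL#1, by -0.97 ± 0.13 (SE; limma adjusted p = 2.17e-07).

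Of 15 genes of the G2 checkpoint, 6 rose with siVPS4A#1, 2 with siVPS4B#1, 3 with siVPS4B#2, 4 in siVPS4A+B#1 and 6 in siVPS4A+B#2, while 5, 1, 0, 1 and 1 fell. Of all genes 17.7%, 10.4%, 6.49%, 18.3% and 21.6% were called higher in the same order, and 19.3%, 11.7%, 7.77%, 18.7% and 23.6% lower. CDKN1A, the p21 inhibitor of cyclin-dependent kinases, stood at 632, 756, 836, 598 and 721 RPM in siCTRL#1 and at 2189, 2438, 3337 and 3197 in siVPS4A#1. It was at 463, 471, 491 and 638 in siVPS4A#2, at 2114, 1741, 2013 and 1524 in siVPS4A+B#1 and at 2295, 2443, 1709 and 2028 in siVPS4A+B#2. CDKN1A was thus above all siCTRL#1 libraries in siVPS4A#1 and both pairs, where most of the 45 genes were lower, and within or below their range in siVPS4A#2. It was also above all of them in siCTRL#2, at 881, 1123, 839.9 and 978 (0.47 ± 0.15 SE, limma adjusted p = 0.0131), where 3 of the 45 genes were higher and 4 lower. That rise was smaller than the log2 fold changes of 1.39 and 1.59 in the pairs. CDKN1A was also higher with siVPS4B#1 (0.77 ± 0.15 SE, limma adjusted p = 0.000114) and with siVPS4B#2 (0.76 ± 0.15 SE, limma adjusted p = 0.000428), which lowered 41 and 9 of the 45 genes. Its part in the fall of the 45 genes was not tested.

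SFN, the 14-3-3 sigma protein that holds CDK1 out of the nucleus, rose in both pairs (2.19 and 2.20), as did PLK2 (0.90 and 1.32). WEE1, the kinase that keeps CDK1 inactive, fell with siVPS4A#1 (-1.0 ± 0.15 SE, limma adjusted p = 9.25e-07) and siVPS4B#1 (-0.70 ± 0.15 SE, limma adjusted p = 0.000663). In the pairs its log2 fold changes were -0.14 and -0.11, and it passed in neither.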

How the data were processed

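RNA of HCT116 cells was read with an amplicon panel that has 1 amplicon per gene, so levels were compared within a gene and never between genes. Per the labels, reads were aligned to hg19 and counted with HTSeq 0.6.0, and DESeq2 1.18.1 is named among the submitters' tools. The deposited values are a signal made by the authors, the share of a library's reads over the listed genes, and each library sums to 1; how counts became shares is not given in the sources used here. Reads were recovered from the shares: 49.5% of all values carry enough digits to be placed, and 99.99% of these were whole within 0.1 reads. They were scaled to RPM (reads in a library size of 1000000) with TMM factors (edgeR 4.0.16). Depth was 5090666 to 11035301 reads in the 37 libraries used, and intervals cover counting or replicate spread only.

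Genes were tested with limma 3.58.1 (R 4.3.3) on log2(RPM + 1) in 1 model of 9 conditions with the replicate number as a block, over all 12627 genes, with Benjamini-Hochberg adjustment within each of 17 comparisons and a threshold of 0.05. The labels give each number a batch letter of its own, which is where the pairing comes from; the deviations of same-numbered libraries from their group means correlated with a mean r of 0.17 (137 pairs) against -0.05 for different numbers (471 pairs). By number the mean r was 0.27, 0.07, 0.30 and 0.016 for numbers 1 to 4, so the check is carried by numbers 1 and 3. The study describes its RNA-seq replicates as independent experiments, and p-values measure the spread between them. Count tests on the recovered reads were run as alternatives: with siVPS4A#1 edgeR and DESeq2 1.42.0 each called 45 of the 45 genes lower, and with siVPS4B#2 they called 9 and 11. Other alternatives were other scalings, pseudocounts, filters, references, weights and left-out libraries. Test steps were tested on simulated data. Intervals at 95% used the SE and 24 residual degrees of freedom.

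The 45 genes and the other gene lists were chosen with earlier results of these data known. Full statistics were given by rule to up to 5 genes called in each direction of a comparison with the largest change, to FOXM1, CCNB1, CDK1, PLK1, MKI67 and TOP2A, and to VPS4A, VPS4B, CDKN1A, MYBL2 and WEE1; from each other list up to 3 genes called by both pairs in each direction were named. UBE2C, ESPL1, BIRC5, ANLN, CENPA and KIF20A were shown by library after their values were seen. Promoters came from the RefSeq table (GRCh38.p14), gene positions from the GRCh37 annotation, and symbols for 12474 genes from the reference tables. The library labelled siVPS4A#1 replicate 2 was left out because the rule that set these comparisons leaves it out, a rule made with earlier results known, and it was put back as an alternative.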

Additional observations from a re-analysis of the deposited data

Results flagged for a closer look

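Among 126 sets of 4 or 5 libraries examined for a library apart from the others (Dixon's criterion, which chance meets in about 1 of 20), 11 had one. In siVPS4A#1, replicate 1 was apart from the other 3 in CDK1 (54.1 RPM against 25.4 to 26.3), MKI67 (43.5 against 21.3 to 25) and VPS4A itself (3.51 against 1.64 to 1.88). Of the libraries used, the one with the highest VPS4A was thus the one with the smallest fall of these genes. This rests on 1 library, and a link was not tested. In the pairs, KIF20A was at 21.4 in replicate 2 of siVPS4A+B#1 (10.9 to 12.4 in the others) and CDK1 at 32.8 in replicate 3 of siVPS4A+B#2 (66.9 to 72.1). In siVPS4B#1, CDK1 was at 92.0 in replicate 3 (70.3 to 71.5) and MKI67 at 66.2 in replicate 1 (76.4 to 78.2). In siVPS4A#2, UBE2C was at 332 in replicate 3 (215 to 228) and CDKN1A at 638 in replicate 4 (463 to 491). In NT, CDK1 was at 104 in replicate 2 (126 to 131) and TOP2A at 122 in replicate 3 (95 to 99.5).

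Differences between duplexes or pairs under the same control, each tested directly with limma, passed in 45 of the 45 genes for siVPS4A#1 against siVPS4A#2, in 27 for siVPS4B#1 against siVPS4B#2 and in 21 for siVPS4A+B#1 against siVPS4A+B#2. The departure from the sum of single duplexes passed in 2 genes for siVPS4A+B#1 and in 33 for siVPS4A+B#2.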

How the results depend on the processing

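Of the counts and medians recomputed under the alternatives 816 kept to within 1.5 times the reported count, or within the spread between replicates, and 64 moved; of the values of named genes 1899 kept their side of the threshold, 79 no longer passed it and 0 turned direction. The fit without the replicate block changed counts in siCTRL#1 against NT (1 gene higher and 1 lower) and in the departure of siVPS4A+B#1 (0 below the sum), and moved no other count by over 1.5 times; the pairing check is given with the methods.

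With siCTRL#2 as the reference, siVPS4A#2 had 8 genes higher and 1 lower, siVPS4B#2 had 17 lower and 1 higher, and each pair had 1 higher. With NT as the reference, siVPS4A#2 had 5 higher, siVPS4B#1 had 1 higher, and the medians of the pairs were -0.79 and -1.15. Array weights gave 16 genes lower for siVPS4B#2, 1 higher for siVPS4B#1, 5 higher for siCTRL#2 against siCTRL#1 and 2 lower for siCTRL#1 against NT. Scaling by library totals alone moved the median of all genes to between -0.16 and -0.10 in the comparisons of pairs and in both departures; there the median of the 45 genes was -1.10 for siVPS4A+B#1 against siCTRL#1 and -1.21 against siVPS4A#2, and 1 gene was higher against siVPS4B#1 and 1 in siCTRL#2 against siCTRL#1. With the conditions compared fitted alone, siVPS4A+B#2 had 9 genes higher and 0 lower than siVPS4A#1, siVPS4A+B#1 had 5 higher than siVPS4B#1, siVPS4B#1 had 1 higher than siCTRL#1, siCTRL#2 had 5 higher and siCTRL#1 had 3 lower than NT; the departures were not run in this setting or with another reference. With all 38 libraries, the counts higher were 11 for siVPS4A+B#2 against siVPS4A#1, 1 for siVPS4A+B#1 against siVPS4B#1, 1 for siCTRL#1 against NT, 1 for siCTRL#2, 13 for the departure of siVPS4A+B#2, and 0 above and 0 below for that of siVPS4A+B#1. Requiring a fold of 1.5 gave 1 higher and 0 lower for siVPS4A+B#1 against siVPS4B#1, 0 lower for siVPS4A+B#2 against siVPS4A#1, 0 higher for siVPS4B#1 against siVPS4B#2, 2 higher for siCTRL#1 against NT and 1 higher for siCTRL#2.

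Leaving out replicates in turn gave 3 to 13 genes lower for siVPS4B#2, 0 to 1 lower and 1 to 3 higher for siVPS4A+B#1 against siVPS4B#1, 0 to 1 lower for siVPS4A+B#2 against siVPS4A#1, 16 to 26 lower for siVPS4B#1 against siVPS4B#2, 11 to 23 higher for siVPS4A+B#1 against siVPS4A+B#2, 0 to 1 lower and 1 to 3 higher for siCTRL#1 against NT, 1 to 5 higher for siCTRL#2 and 0 to 2 below for the departure of siVPS4A+B#1. The median of siVPS4A#1 against siVPS4A#2 ranged from -2.30 to -1.91. The cause of these moves was not tested, beyond the fewer libraries or genes that a setting itself leaves. Depth limits VPS4B most, which is down to 1 read in some knockdown libraries, and none of the 45 genes fell to 3 reads or fewer.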
